A study of Mus musculus with 4 samples.

Results

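The subunits of the oxidative phosphorylation system were followed through goblet cells and neighbouring epithelial cells of the mouse distal colon and small intestine. They were taken by gene symbol: every name beginning with Ndufa, Ndufb, Ndufc, Ndufs, Ndufv, Uqcr, Cox4 to Cox8, Atp5 or mt-, with the Ndufaf assembly factors and names ending in -ps left out. This gave 94 of the 28694 genes in the tables. Of these, 81 are encoded in the nucleus and 13 in the mitochondrial genome. By name, the nuclear members comprise 38 genes of complex I, 8 of complex III, 18 of complex IV and 17 of the ATP synthase. The mitochondrial members comprise 7 genes of complex I, 1 of complex III, 3 of complex IV and 2 of the ATP synthase. Several names cover more than a structural subunit. Ndufa4 is counted with complex I here but its protein is now assigned to cytochrome c oxidase, Cox7a2l encodes a factor that joins complexes III and IV, and Atp5sl encodes a complex I assembly factor.

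The electron transport chain passes electrons from NADH and other donors through complexes I, III and IV to oxygen, and pumps protons across the inner mitochondrial membrane. The ATP synthase uses the returning protons to make ATP. Complexes I, III and IV and the ATP synthase are built from products of both genomes, and their nuclear subunits are made in the cytosol and imported. Colonocytes are known to oxidise butyrate, and small intestinal enterocytes glutamine and fatty acids, while goblet cells devote much of their mRNA to secreted mucus proteins.

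Cells came from RedMUC298trTg mice, 6 to 8 weeks old, which carry an mCherry signal that marks goblet cells. Epithelium was released with EDTA and DTT and digested with collagenase and DNase, and live cells were sorted by the presence or absence of mCherry against a C57Bl6 mouse. The 4 single-cell libraries (10x Genomics, 3′ chemistry) were 2 of the distal colon (DC) and 2 of small intestine, section 8 (Si8), and all carry the same transgene. The sources used here do not give the sort gate of each library or whether replicates came from separate mice, so p-values measure the spread between these libraries only.

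The DC libraries held 1937 and 5098 barcodes and the Si8 libraries 1536 and 2256, with 27136824 and 66880457 UMIs in DC against 26075303 and 53675821 in Si8. UMIs (unique molecular identifiers) count captured transcript ends, so that levels are not divided by gene length, and CPM is UMIs scaled to a total of 1000000 per sum. After filters 1829 and 4713 DC cells and 1490 and 2196 Si8 cells remained. Pairs of libraries shared between 1 and 16 barcodes. Clustering without the members or the lists named below gave 11 clusters. Clusters 0, 2, 3, 6 and 7 were led by goblet markers or held at least 3 of them and were called goblet-like, with 1133 and 2425 DC cells and 1137 and 1145 Si8 cells. Cluster 1 was absorptive-like, led by Car4, Slc26a3 and Fabp6, and clusters 4, 5 and 8 were cycling-like. The Paneth-like cluster (6 and 6 cells in DC, 20 and 43 in Si8) and enteroendocrine-like cells (33 in all) were few. The 6 and 6 DC cells of the Paneth-like cluster summed to 622 and 450 CPM of Paneth markers, against 395930 and 439110 CPM in Si8, so the name is used below for Si8 only. Cluster 7 had a lower median depth than cluster 0 in each library, and the comparisons that include it are given without it in the closing section where that moves them.

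Nuclear subunit genes are textbook targets of the factors NRF1, GABPA and YY1, and the windows around their starts were searched for short letter strings that such factors bind. Promoter sequences from RefSeq (GRCm38.p6) matched 64 of the 81 nuclear members. The letters GCATGCGC (NRF1) occurred on either strand in 9 of 64 members, or 14.1%, against 3.05% of 27025 genes, over windows of 300 bases. The letters CCGGAAGT (the ETS motif of GABPA) occurred in 7.81% of members and in 4.31% of genes. The letters AAGATGGCG (YY1) occurred in 10.9% of members and in 1.64% of genes. At least 1 of the 3 strings was present in 31.2% of members and in 8.47% of genes, and the members' windows were richer in G and C, at a median of 57.0% against 52.7%. Promoters of 3 members that fell in the Mxd1-high goblet cluster described below, 1 for each motif, are printed first, with the match in capitals. In Atp5g2 the NRF1 letters match on both strands and overlap, in Uqcrh the ETS letters lie on the reverse strand, and in Atp5j the YY1 letters lie on the forward strand. The promoters of Cox7a1 and Cox8b follow, as complex IV forms that differed between the tissues in goblet-like cells. They hold none of the 3 strings in these windows. Each line gives 250 bases 5′ of a start annotated by RefSeq, in the direction of transcription. These starts need not be those of the GENCODE gene models. The Atp5g2 and Atp5j stretches lie inside the GENCODE genes, downstream of their 5′ ends, and the Cox7a1 stretch runs past the GENCODE start at 30184144. RefSeq also lists another start for Atp5j, whose stretch is not printed.

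Atp5g2 (chr15:102671048-102671297, minus strand): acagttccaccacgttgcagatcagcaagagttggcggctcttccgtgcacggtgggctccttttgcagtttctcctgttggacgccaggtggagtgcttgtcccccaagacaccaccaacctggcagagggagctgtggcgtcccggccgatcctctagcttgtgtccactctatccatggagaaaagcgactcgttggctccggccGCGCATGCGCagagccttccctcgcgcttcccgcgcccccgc
Uqcrh (chr4:116075071-116075320, minus strand): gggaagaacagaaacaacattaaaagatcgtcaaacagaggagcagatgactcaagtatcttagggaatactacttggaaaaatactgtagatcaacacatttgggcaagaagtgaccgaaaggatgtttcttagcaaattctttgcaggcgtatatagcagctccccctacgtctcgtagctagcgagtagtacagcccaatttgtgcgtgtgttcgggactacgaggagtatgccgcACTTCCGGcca
Atp5j (chr16:84834977-84835226, minus strand): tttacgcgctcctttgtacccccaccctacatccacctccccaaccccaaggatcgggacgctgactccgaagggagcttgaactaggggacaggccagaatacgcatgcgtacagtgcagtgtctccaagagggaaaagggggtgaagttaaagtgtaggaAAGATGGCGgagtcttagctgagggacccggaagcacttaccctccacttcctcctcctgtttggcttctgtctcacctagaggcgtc
Cox7a1 (chr7:30183921-30184170, plus strand): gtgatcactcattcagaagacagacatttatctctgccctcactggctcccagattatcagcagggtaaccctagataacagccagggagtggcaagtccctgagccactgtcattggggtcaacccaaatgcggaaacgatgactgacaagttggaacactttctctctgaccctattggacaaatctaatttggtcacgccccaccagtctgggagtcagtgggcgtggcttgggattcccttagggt
Cox8b (chr7:140900447-140900696, minus strand): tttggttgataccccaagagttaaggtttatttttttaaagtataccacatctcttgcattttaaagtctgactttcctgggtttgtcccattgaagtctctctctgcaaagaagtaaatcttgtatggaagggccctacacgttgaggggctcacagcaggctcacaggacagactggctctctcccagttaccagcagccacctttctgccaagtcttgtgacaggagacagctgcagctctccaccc

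Both sets of subunits took a larger share of the transcripts of goblet-like cells in DC than in Si8. The 81 nuclear members summed to 44130 and 49297 CPM in DC goblet-like cells, against 29700 and 31324 CPM in Si8. The 13 mitochondrial members summed to 58216 and 55963 CPM in DC, against 29044 and 33414 CPM in Si8. For both sets each DC library lay above each Si8 library. The ratio of mitochondrial to nuclear UMIs was 1.32 and 1.14 in DC and 0.978 and 1.07 in Si8. Per complex the nuclear sums ran in the same order: complex I gave 12124 and 13709 CPM in DC against 8697 and 9150 CPM in Si8, and complex IV gave 14640 and 16091 CPM against 9083 and 9639 CPM.

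These shares are of a transcriptome with a different make-up. The goblet marker list summed to 85242 and 83959 CPM in DC goblet-like cells, against 287860 and 289750 CPM in Si8. In CPM, 74 of the 76 nuclear members tested and 13 of 13 mitochondrial members were above both Si8 libraries in both DC libraries, but so were 69.8% of all 11922 genes tested. Tests therefore used TMM scaling, which sets the bulk of genes level between tissues. With it the median log2 difference was 0.05 over all genes, 0.09 over the nuclear members and 0.29 over the mitochondrial members. With library totals alone the same medians were 0.57, 0.62 and 0.82. How much of the summed difference follows from the secretory transcripts was not tested. In the same libraries, fewer transcripts per cell and a lower share of the transcripts cannot be told apart from CPM alone. Goblet-like cells held 39127965 UMIs over 1133 and 2425 cells in DC, against 38429381 UMIs over 1137 and 1145 cells in Si8. An average Si8 cell thus held more UMIs. In cluster 0 an average cell held 463 and 461 nuclear-member UMIs in DC against 436 and 542 in Si8, and the ranges overlap. For mitochondrial members these were 727 and 633 in DC against 460 and 572 in Si8. A larger share therefore need not be a larger count per cell, which was not tested for the class.

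**Figure D1:**
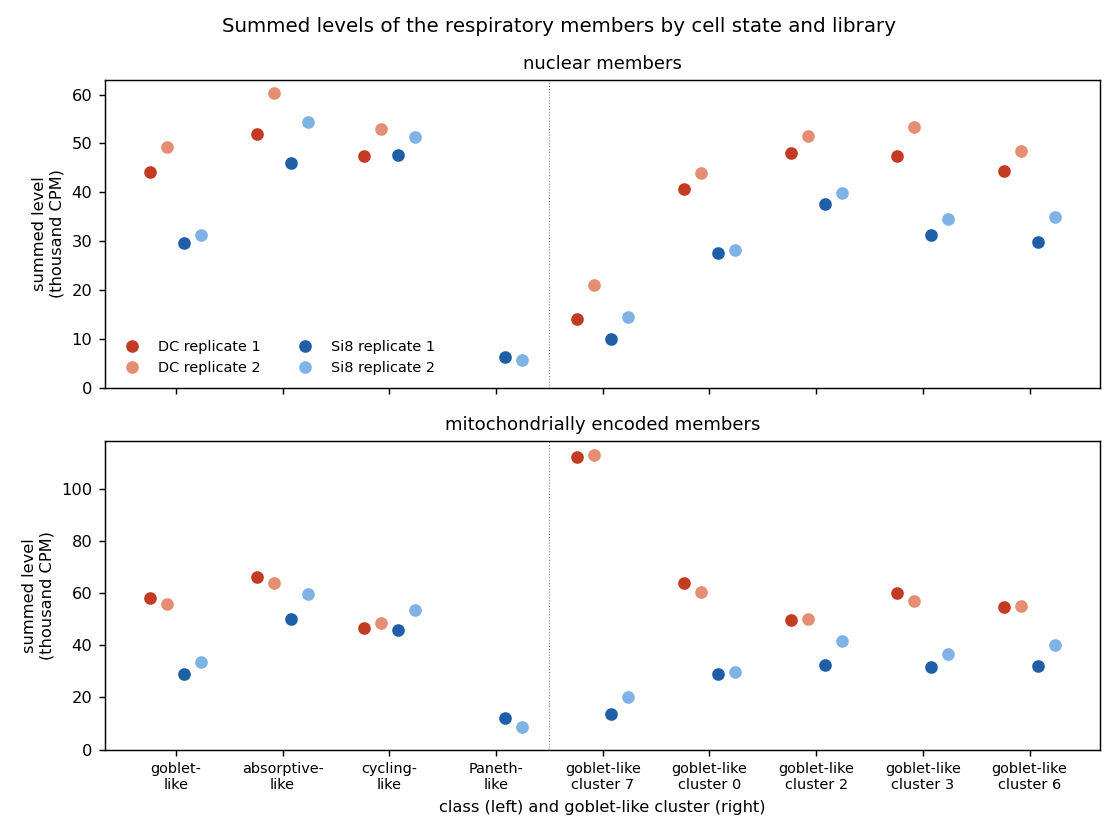
Summed CPM of the 81 nuclear members and of the 13 mitochondrial members (y axes, in units of 1000 CPM, linear from 0) in 4 classes and, right of the dotted line, in the 5 goblet-like clusters, with 1 point per library of at least 20 cells (DC in red, left, and Si8 in blue, right). Goblet-like nuclear sums are 44130 and 49297 CPM in DC against 29700 and 31324 CPM in Si8, and cluster 7, the Mxd1-high goblet cluster, has 112290 and 113040 CPM of mitochondrial members in DC against 13520 and 20058 CPM in Si8.

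Relative to the bulk of genes, 12 nuclear members were higher and 1 was lower in DC than in Si8 goblet-like cells (edgeR quasi-likelihood test, Benjamini-Hochberg adjusted p under 0.05), where 42.1% of all genes tested passed in either direction. Of all genes, 20.6% were higher and 21.5% lower. By complex, 5 of 37 complex I members tested, 1 of 8 complex III members, 5 of 14 complex IV members and 1 of 17 ATP synthase members were higher. The complex IV count includes Cox8b, which had 0 UMIs in Si8. It passed the count filter through DC alone and could only be called higher. Library totals alone gave 66 higher nuclear members and 12 higher mitochondrial members, in a setting where 54.0% of all genes were higher and 10.2% lower.

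The widest differences were in complex IV, the terminal oxidase, whose small nuclear subunits exist as alternative tissue forms. Cox8b, the heart and skeletal muscle form of subunit 8, had 99 and 90 UMIs in DC goblet-like cells and 0 and 0 in Si8. Over the group this is at least 61.9-fold higher in DC, with 3 UMIs over the group taken as the limit of a count of 0 in Si8. It stayed a rare transcript at 7.46 and 3.48 CPM in DC, beside 2281 and 2455 CPM of Cox8a, the common form, which had 1463 and 1437 CPM in Si8. Cox8a did not pass the test (log2 difference 0.18, SE 0.12, adjusted p = 0.267).

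Cox7a1, the heart and muscle form of subunit 7a, reached 271 and 173 CPM in DC goblet-like cells, against 56.7 and 49.3 CPM in Si8. It rose by 1.54 on the log2 scale (SE 0.22, adjusted p = 0.00276). Cox7a2, its common form, had 1047 and 1275 CPM in DC against 749 and 804 CPM in Si8, with a TMM-scaled log2 difference of 0.06 (adjusted p = 0.78). Cox7a2l had 386 and 410 CPM in DC against 161 and 183 CPM in Si8 and rose by 0.69 (SE 0.12, adjusted p = 0.00638).

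Cox6b2, known as the testis form of subunit 6b, had 3.62 and 4.10 CPM in DC goblet-like cells and 0.703 and 1.08 CPM in Si8, a log2 difference of 1.57 (SE 0.32, adjusted p = 0.0101). This rests on 48 and 106 UMIs in DC and 12 and 23 in Si8, and the call was lost without the second DC library (adjusted p up to 0.0612). Cox6b1, its common form, had 1002 and 1173 CPM in DC against 816 and 881 CPM in Si8 and did not pass (log2 difference -0.17, adjusted p = 0.366). Other rare forms were near 0 in every library. Over all cells Cox4i2 had 3 UMIs, Cox7b2 had 0, Cox8c had 2, Ndufa4l2 had 6 and Cox6a2 had 26.

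**Figure D2:**
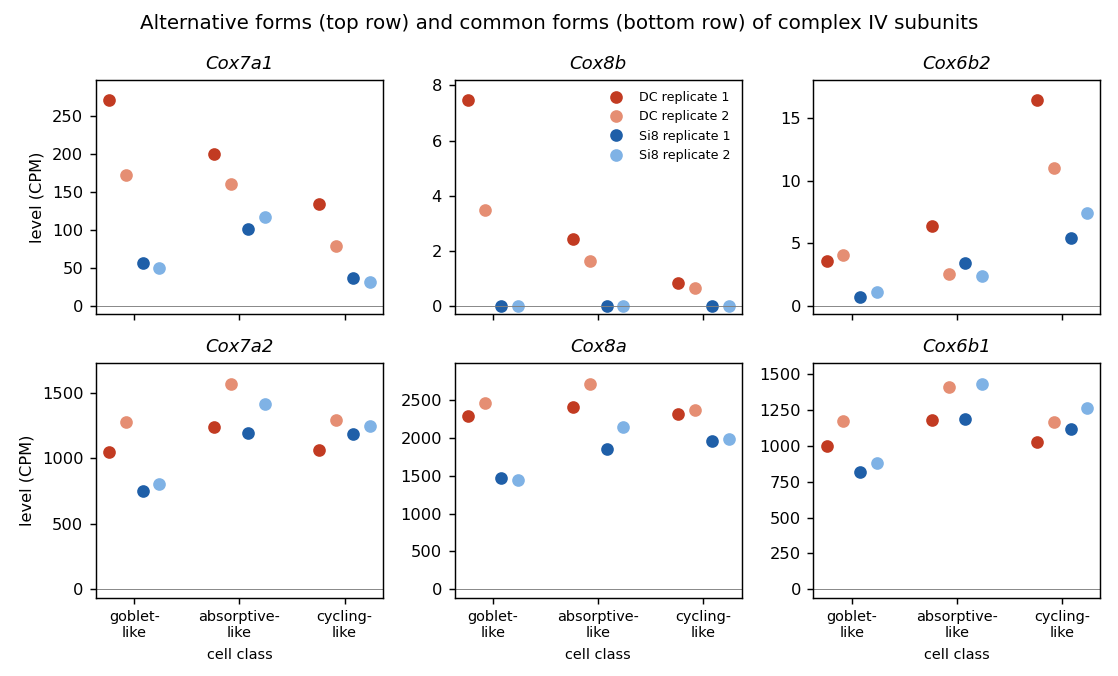
CPM of Cox7a1, Cox8b, Cox6b2 (upper panels) and of common forms (lower panels) in goblet-like, absorptive-like and cycling-like cells, with 1 point per library (DC left, Si8 right) on linear axes that differ between panels. Cox8b is at 0 in both Si8 libraries in all 3 classes, and Cox7a1 lies between 173 and 271 CPM in DC goblet-like cells against 49.3 to 56.7 CPM in Si8.

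Members outside complex IV and the complex IV subunit Cox6c follow. Atp5sl rose by 1.18 (SE 0.14, adjusted p = 0.00124), with 29.0 and 25.2 CPM in DC against 8.67 and 7.91 CPM in Si8. In the iron-sulfur arm of complex I, Ndufs1, which carries several of the iron-sulfur clusters, had 45.2 and 44.9 CPM in DC against 22.1 and 21.995 CPM in Si8 and rose by 0.51 (SE 0.10, adjusted p = 0.00795). Ndufa5, an accessory subunit of the peripheral arm, rose by 0.60 (SE 0.12, adjusted p = 0.00835), with 263 and 291 CPM in DC against 126 and 129 CPM in Si8, and missed the threshold without the first Si8 library. Cox6c and Ndufc2 rose by 0.46 and 0.45 and kept the call in 15 and 14 of 21 other settings. The Cox6c call was lost without the second DC library or either Si8 library, and the Ndufc2 call without any 1 library. Ndufb2, Uqcr10 and Ndufb4 rose by 0.43, 0.40 and 0.38.

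Ndufs4, a late-assembling accessory subunit of complex I whose loss in mice gives a model of Leigh syndrome, was the only nuclear member called lower in DC goblet-like cells. It had 156 and 183 CPM in DC against 198 and 221 CPM in Si8, and it fell by 0.83 on the log2 scale (SE 0.14, adjusted p = 0.00461). It kept a negative sign in all 21 alternatives and missed the threshold in 2, both of which scaled by totals without TMM, with adjusted p up to 0.114.

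Of the mitochondrial members, mt-Co2 and mt-Nd6 passed the test in goblet-like cells. The mt-Co2 transcript, encoding the subunit that takes electrons from cytochrome c, had 6485 and 6793 CPM in DC against 3035 and 3582 CPM in Si8 (log2 difference 0.48, SE 0.15, adjusted p = 0.0431). The mt-Nd6 transcript, the one member on the opposite strand of the mitochondrial genome, had 10.8 and 10.4 CPM in DC against 3.69 and 5.01 CPM in Si8 (log2 difference 0.75, SE 0.20, adjusted p = 0.0273). It overlaps the end of mt-Nd5, and the sources used here do not say whether counting used strand. The mt-Co2 call was lost when any 1 library was left out, and the mt-Nd6 call without either DC library or the first Si8 library. The other 11 had log2 differences of 0.09 to 0.42 and did not pass, and without DC replicate 1 the estimates of mt-Atp8, mt-Nd4l and mt-Nd5 turned to -0.26, -0.13 and -0.16. The mt-Co1 transcript was the most abundant in each library, at 13784 and 12569 CPM in DC against 6673 and 7558 CPM in Si8. The 5 most abundant mitochondrial members took 83.2% and 85.2% of the mitochondrial sum in DC and 82.4% and 84.2% in Si8, while the 5 most abundant nuclear members took 20.5% and 19.9% of the nuclear sum in DC and 18.1% and 17.97% in Si8. The mitochondrial sum thus rested on few transcripts and the nuclear sum on many.

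**Figure D3:**
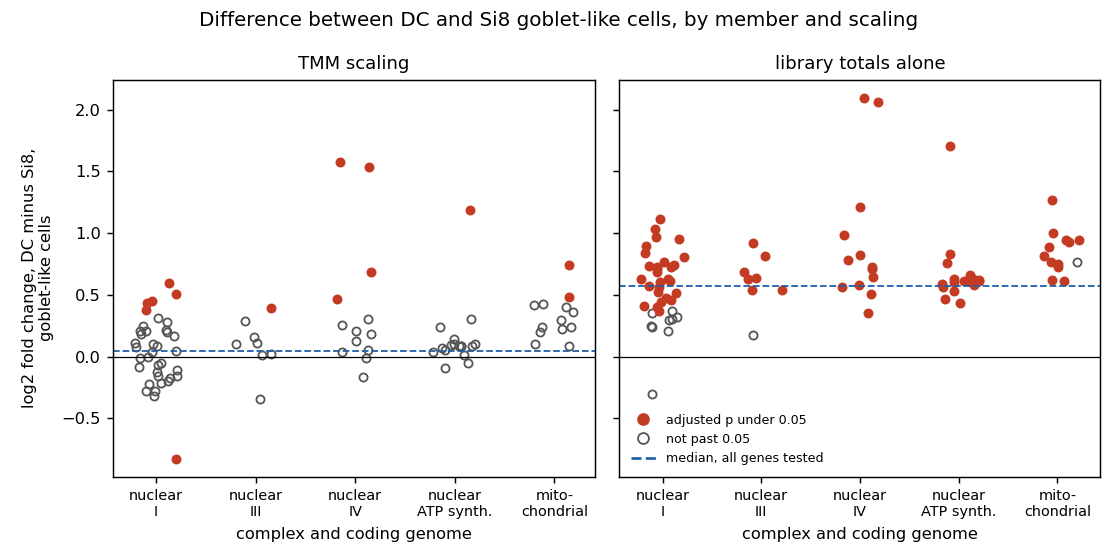
Log2 difference of DC minus Si8 in goblet-like cells for each member tested (1 point a gene), grouped by complex and by genome, with TMM scaling (left panel) and library totals alone (right panel), genes past the adjusted threshold filled, and the all-gene medians of 0.05 and 0.57 as dashed lines. Cox8b, with 0 UMIs in Si8, is left out. With TMM scaling Cox6b2 and Cox7a1 stand highest at 1.57 and 1.54 and Ndufs4 lowest at -0.83, while the mitochondrial members lie between 0.09 and 0.75, where 3 of them turn negative without DC replicate 1.

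In the other classes the summed levels of the tissues lay closer. Absorptive-like cells had nuclear sums of 51886 and 60289 CPM in DC against 45941 and 54314 CPM in Si8, and the ranges overlap. Their mitochondrial sums were 66140 and 63789 CPM in DC against 50080 and 59729 CPM in Si8, with DC above Si8. Goblet markers in absorptive-like cells summed to 32471 and 28863 CPM in DC against 125890 and 83259 CPM in Si8, so that goblet transcripts were present in this class too. Cycling-like cells had nuclear sums of 47369 and 53054 CPM in DC against 47630 and 51309 CPM in Si8, and mitochondrial sums of 46819 and 48554 CPM in DC against 46053 and 53376 CPM in Si8, and both ranges overlap. Enteroendocrine-like cells reached 17 cells in the second DC library, with 45158 CPM of nuclear and 54344 CPM of mitochondrial members, and 11 in the second Si8 library, with 48401 and 58019 CPM.

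The comparisons by tissue in absorptive-like and in cycling-like cells were added after their levels had been seen. In absorptive-like cells 5 nuclear members were higher and 4 were lower in DC, beside 33.4% of all genes tested. Ndufa1, a small X-linked membrane subunit needed for complex I assembly, had 628 and 662 CPM in DC against 262 and 313 CPM in Si8 and rose by 0.94 (SE 0.17, adjusted p = 0.00205). Ndufa4 had 597 and 618 CPM in DC against 1091 and 1269 CPM in Si8 and fell by 1.18 (SE 0.17, adjusted p = 0.000767). Both calls held in all 14 alternatives. Ndufa7, Ndufa6, Cox7a2l and Cox7a1 were higher by 0.63, 0.52, 0.52 and 0.49, and Ndufa9, Ndufs4 and Ndufs8 fell by 0.55, 0.50 and 0.46. None of these 7 held without the first DC library, nor without the second.

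In cycling-like cells 3 nuclear members were higher and 2 were lower in DC, beside 26.1% of all genes. Cox7a1 had 134 and 78.3 CPM in DC against 37.2 and 31.4 CPM in Si8 and rose by 1.53 (SE 0.25, adjusted p = 0.00357). Ndufa4 had 863 and 909 CPM in DC against 1364 and 1398 CPM in Si8 and fell by 0.74 (SE 0.15, adjusted p = 0.00922). Cox6b2 and Ndufa1 were higher by 0.90 and 0.59, and Ndufs4 fell by 0.59. The Ndufa4, Cox6b2 and Ndufs4 calls were lost without the first DC library, the Ndufa1 call without the second, the Cox6b2 and Ndufa1 calls without the first Si8 library and the Ndufs4 call without the second. In both classes 0 of 13 mitochondrial members passed with edgeR, 0 with DESeq2, and 0 had an unadjusted p under 0.05. Cox7a1 was thus called higher and Ndufs4 lower in DC in each of the 3 classes, which come from the same 4 libraries. Ndufa4 passed the test in absorptive-like and cycling-like cells, and in goblet-like cells it had 879 and 1040 CPM in DC against 757 and 803 CPM in Si8, with a log2 difference of -0.22 (adjusted p = 0.231).

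Summed over all kept cells, Cox7a1 rose by 1.32 and Atp5sl by 0.80 in DC, Cox8b was at least 70.3-fold higher (242 UMIs in DC and 0 in Si8), and Ndufs4 fell by 0.67. The Atp5sl and Ndufs4 calls were lost without either DC library. These 4 were the members past the threshold, beside 24.8% of all genes, and Cox8b again passed the count filter through DC alone. Of the mitochondrial members 0 of 13 passed with edgeR, DESeq2 or an unadjusted p under 0.05. These sums mix classes in shares that differ between libraries.

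**Figure D4:**
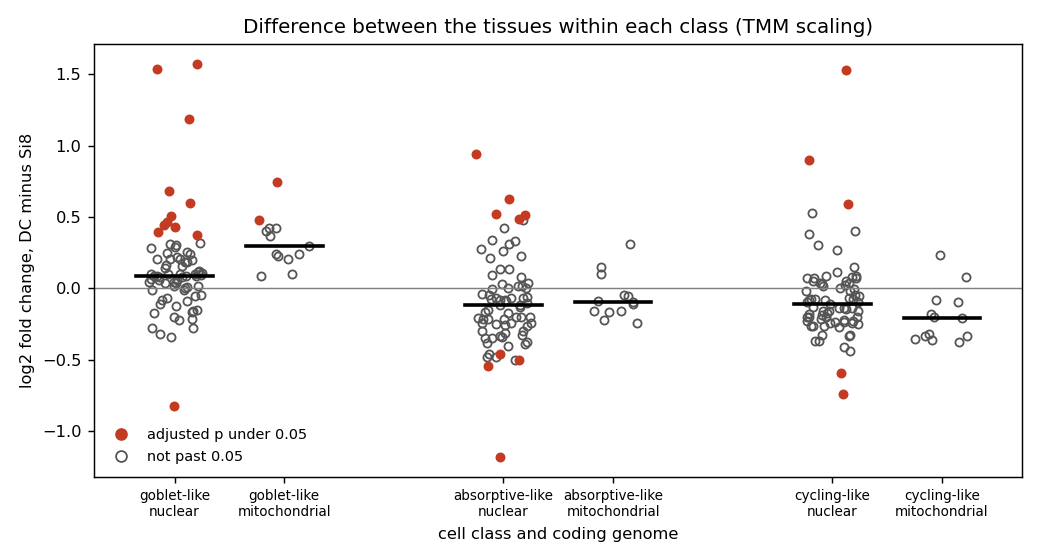
TMM-scaled log2 difference of DC minus Si8 in goblet-like, absorptive-like and cycling-like cells for each member tested (1 point a gene), nuclear and mitochondrial members apart, with medians as bars and filled points where the adjusted p is under 0.05. Cox8b, with 0 UMIs in Si8, is left out. Ndufa4 lies at -1.18 in absorptive-like and -0.74 in cycling-like cells but at -0.22 in goblet-like cells, and Cox7a1 at 1.54, 0.49 and 1.53 in goblet-like, absorptive-like and cycling-like cells.

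Classes were also compared within libraries. Absorptive-like cells had 16 nuclear members higher and 1 lower than goblet-like cells, and 3 mitochondrial members higher, beside 29.9% of all genes tested (13.8% higher). Cox6c, a structural subunit of complex IV, had the largest difference of these 16, at 0.55 on the log2 scale (SE 0.08, adjusted p = 0.00549). Ndufs1, in the electron-carrying arm of complex I, was higher by 0.53, and Atp5k and Atp5g3 of the ATP synthase by 0.44 and 0.41. Of the mitochondrial members mt-Atp8, mt-Nd4l and mt-Nd5 were higher by 0.66, 0.64 and 0.36. The mt-Atp8 and mt-Nd4l reading frames overlap mt-Atp6 and mt-Nd4, so their reads may not be fully apart. Cox8b fell by 1.43, with 2.42 and 1.64 CPM in absorptive-like cells of DC against 7.46 and 3.48 CPM in goblet-like cells. Without the first Si8 library 3 members passed in place of 20, and without the second Si8 library 6.

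The difference between the classes itself depended on tissue. The absorptive-like minus goblet-like difference was smaller in DC than in Si8 for 27 nuclear and 8 mitochondrial members and larger for 3, beside 20.3% of all genes (8.95% smaller and 11.4% larger). It was smaller by 1.06 for Cox7a1 (SE 0.14, adjusted p = 2.34e-05) and by 0.99 for Ndufa4 (SE 0.12, adjusted p = 5.21e-06). Cox7a1 had 200 and 160 CPM in absorptive-like cells of DC and 271 and 173 CPM in goblet-like cells, while in Si8 it had 101 and 117 CPM in absorptive-like and 56.7 and 49.3 CPM in goblet-like cells. For mt-Nd1 the difference was smaller by 0.61 (adjusted p = 0.000932), with 4257 and 3806 CPM in absorptive-like and 4386 and 3594 CPM in goblet-like cells of DC, against 3802 and 3871 CPM in absorptive-like and 2062 and 2083 CPM in goblet-like cells of Si8. Ndufa1, Ndufa6 and Ndufa7 went the other way, by 0.87, 0.56 and 0.51. Goblet markers moved with this contrast, at 125890 and 83259 CPM in absorptive-like against 287860 and 289750 CPM in goblet-like cells of Si8, and their part in it was not tested.

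Cycling-like cells had 4 nuclear members higher and 10 lower than goblet-like cells and 1 mitochondrial member lower, beside 49.0% of all genes (23.6% higher and 25.3% lower). Cox6b2 rose by 1.82 (SE 0.21, adjusted p = 0.00167), with 16.4 and 11.1 CPM in cycling-like and 3.62 and 4.10 CPM in goblet-like cells of DC, and 5.46 and 7.44 CPM in cycling-like and 0.703 and 1.08 CPM in goblet-like cells of Si8. Cox7a1 fell by 1.28 (SE 0.07, adjusted p = 0.000179), and it was lower in cycling-like cells in each of the 4 libraries. Ndufv3 and Ndufa6 fell by 0.54 and 0.48, and Ndufa5 rose by 0.58. The count turns with scaling: library totals alone gave 40 nuclear members higher and 2 lower, where the median of all genes was 0.39. The cycling-like minus goblet-like difference was smaller in DC than in Si8 for 24 nuclear and 11 mitochondrial members and larger for 5, beside 27.8% of all genes, and the goblet-like sums are the same as in the absorptive-like comparison. For mt-Nd1 it was smaller by 0.75 (SE 0.08, adjusted p = 0.000188).

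Paneth-like cells, which pack defensins and lysozyme into granules, had the lowest shares of both sets among the classes of Si8. In Si8 their nuclear members summed to 6295 and 5676 CPM, against 29700 and 31324 CPM in the goblet-like cells beside them, and their mitochondrial members to 12231 and 8771 CPM against 29044 and 33414 CPM. All 74 nuclear members tested and 13 of 13 mitochondrial members were lower in CPM in both libraries. With TMM scaling 17 nuclear members fell, beside 13.5% of all genes (5.68% higher and 7.86% lower). Of the 13 mitochondrial members 0 passed with edgeR and 0 with DESeq2, and 3 had an unadjusted p under 0.05, all with higher estimates. With library totals alone the 74 and the 13 were all lower, where the median of all genes was -2.02. Cox7a1 fell by 1.29 (SE 0.29, adjusted p = 0.00323), with 3.59 and 5.83 CPM in Paneth-like against 56.7 and 49.3 CPM in goblet-like cells. The Paneth-like values rest on 4 and 24 UMIs. Cox6a1 and Cox5a, common subunits of complex IV, fell by 1.03 and 0.87, and Atp5k of the ATP synthase by 0.84. The mitochondrial members had TMM-scaled estimates of 0.03 to 0.55. DESeq2 called 2 members in place of 17.

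Among goblet-like cells, the 2 largest states were compared within libraries. Cluster 0 (Zg16, Clca1, Fcgbp) had the higher level of surface genes, and cluster 2 (Reg4, Ccl9, Agr2, Spdef) the lower. The mean summed CPM of the surface list, 4402 against 1258, set which cluster was on top of the difference. In cluster 0 against cluster 2, 22 nuclear members were lower and 3 higher, and 2 mitochondrial members were higher, beside 36.3% of all genes (17.6% lower). In CPM, 13 of 13 mitochondrial members were mixed in direction over the 4 libraries, so the 2 called higher did not keep 1 direction. Mitochondrial sums averaged 62063 CPM in cluster 0 against 49897 CPM in cluster 2 of DC, and 29465 against 37070 CPM in Si8. The lower members were spread over complex I (11 of 37 tested), complex III (2 of 8) and the ATP synthase (8 of 17), with 1 of 12 in complex IV. Cox7a2l fell by 0.61 (SE 0.09, adjusted p = 0.00164), Atp5g2, a gene for the c-ring of the ATP synthase, by 0.54, and Ndufa4 by 0.52. Atp5b and Atp5a1, which form the catalytic head of the ATP synthase, fell by 0.42 and 0.41. Cox7a1 rose by 0.77 (SE 0.11, adjusted p = 0.00136), with 319 and 213 CPM in cluster 0 of DC and 60.6 and 53.7 CPM in cluster 0 of Si8. Cluster 2 also carried immunoglobulin transcripts (Igkc, Igha, Jchain) among its leading genes. The interaction with tissue passed for 4 members, beside 9.13% of all genes (4.52% higher and 4.61% lower). Of these Ndufa6 and Ndufa1 fell by 0.55 and 0.48, and mt-Nd1 and mt-Nd3 rose by 0.64 and 0.49. Library totals alone gave 20 nuclear and 10 mitochondrial members higher and 0 lower, where the median of all genes was 0.30, and DESeq2 called 2 members. In DC, mt-Nd1 had 4839 and 4088 CPM in cluster 0 against 3830 and 3107 CPM in cluster 2, while in Si8 it had 1963 and 1727 CPM in cluster 0 against 2560 and 2878 CPM in cluster 2. For mt-Nd1 the direction between the clusters was therefore opposite in the 2 tissues.

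The nuclear and mitochondrial sets came apart in cluster 7, a goblet-like cluster led by 2010109I03Rik, Saa1, Mxd1, Sprr1a and Krt20, genes of the epithelial surface, with Clca1 and Fcgbp. It held 112 and 100 DC cells and 261 and 78 Si8 cells, and 2 goblet and 2 colonic absorptive markers stood among its 10 leading genes. Its comparison with cluster 0 was chosen after its levels had been seen. Nuclear members summed to 14122 and 21166 CPM in cluster 7 and to 40633 and 43970 CPM in cluster 0 of DC, and to 10018 and 14527 CPM in cluster 7 and 27583 and 28270 CPM in cluster 0 of Si8. In each of the 4 libraries the nuclear sum of cluster 7 was thus below that of cluster 0.

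Mitochondrial members went in opposite directions in the 2 tissues. They summed to 112290 and 113040 CPM in cluster 7 and to 63828 and 60297 CPM in cluster 0 of DC. In Si8 they summed to 13520 and 20058 CPM in cluster 7 and to 29092 and 29838 CPM in cluster 0. The ratio of mitochondrial to nuclear UMIs was 7.95 and 5.34 in cluster 7 of DC and 1.35 and 1.38 in cluster 7 of Si8, while in cluster 0 it was 1.57 and 1.37 in DC and 1.05 and 1.06 in Si8.

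The nuclear members were lower gene by gene. With TMM scaling 61 of 74 tested were lower in cluster 7 than in cluster 0 and 0 were higher, beside 37.4% of all genes (19.3% lower). At an unadjusted p under 0.05, and with DESeq2, 0 nuclear members were higher as well, and DESeq2 gave 58 lower. The median log2 difference was -0.99 for the nuclear members and -0.02 for all genes. All complexes took part: 30 of 37 complex I members tested, 7 of 8 of complex III, 10 of 12 of complex IV and 14 of 17 of the ATP synthase were lower.

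Atp5g1 and Atp5g2 both encode subunit c, the proton-carrying ring of the ATP synthase. Atp5g1 had 155 and 315 CPM in cluster 7 against 799 and 991 CPM in cluster 0 of DC, and 91.0 and 185 CPM in cluster 7 against 621 and 614 CPM in cluster 0 of Si8. It fell by 1.75 (SE 0.19, adjusted p = 1.42e-05), and Atp5g2, whose promoter with the NRF1 letters is printed above, fell by 1.72 (SE 0.20, adjusted p = 1.67e-05). Ndufa4 had 143 and 210 CPM in cluster 7 against 680 and 753 CPM in cluster 0 of DC, and 67.4 and 207 CPM in cluster 7 against 560 and 661 CPM in cluster 0 of Si8. It fell by 1.82 (SE 0.21, adjusted p = 1.64e-05). Ndufc2, Ndufb5, Ndufc1 and Ndufb6, small membrane subunits of complex I, fell by 1.80, 1.79, 1.72 and 1.62. Ndufs3 of the peripheral arm fell by 1.63, and Ndufab1, the mitochondrial acyl carrier protein, by 1.55. Uqcrh, the hinge protein of complex III, fell by 1.17 and Atp5j, in the stalk of the ATP synthase, by 0.61, and both promoters are printed above. Atp5s had the lowest estimate (-2.54, SE 0.65, adjusted p = 0.00674), from few UMIs, with 0 in cluster 7 of the second Si8 library. Cox7a1 did not pass (log2 difference -0.28, adjusted p = 0.367). It had 235 and 241 CPM in cluster 7 and 319 and 213 CPM in cluster 0 of DC, and 25.1 and 21.3 CPM in cluster 7 and 60.6 and 53.7 CPM in cluster 0 of Si8.

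For the mitochondrial members the difference between the tissues in this contrast was itself tested. The cluster 7 minus cluster 0 difference was larger in DC than in Si8 for 12 of 13 mitochondrial members, by 1.49 to 1.92 on the log2 scale, and for 1 nuclear member, Cox7a1 (1.12, SE 0.34, adjusted p = 0.0455), beside 2.74% of all genes. The 12 calls were made in the same number with library totals alone and with DESeq2, where Cox7a1 was not called. Other mitochondrial limits, thinning and leaving out 1 library were not run for interactions. The gene mt-Nd6 had an estimate of 1.97 and an adjusted p of 0.196. For mt-Cytb, the one mitochondrial subunit of complex III, the difference was 1.91 (SE 0.33, adjusted p = 1.48e-06). It had 9161 and 8445 CPM in cluster 7 against 4759 and 4467 CPM in cluster 0 of DC, and 931 and 1636 CPM in cluster 7 against 2490 and 2518 CPM in cluster 0 of Si8. In each library all 13 moved together: all were above cluster 0 in both DC libraries, at median log2 ratios of 0.74 and 0.82, and all were below it in both Si8 libraries, at -1.14 and -0.62. In the pooled contrast mt-Nd5 and mt-Atp8 were called higher, by 0.83 and 0.91, but the 2 tissues have opposite signs in CPM.

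**Figure D5:**
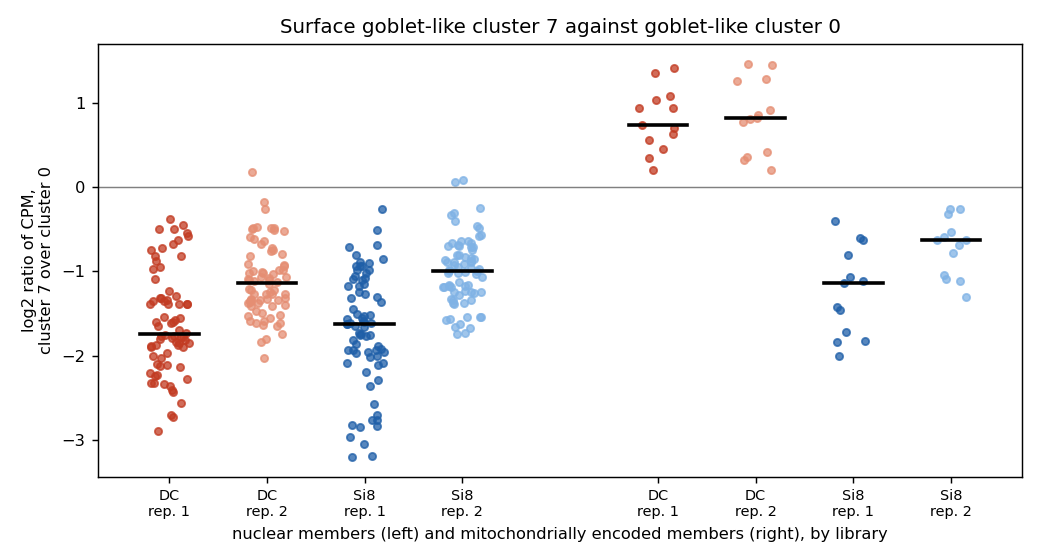
Log2 ratio of CPM in cluster 7 over cluster 0 for each tested member in each library (1 point a gene, with medians as bars), nuclear and mitochondrial members apart, DC libraries left of Si8 libraries. A member with 0 UMIs in cluster 7 of a library has no point there. Nuclear medians are -1.74 and -1.13 in DC and -1.63 and -0.999 in Si8, while mitochondrial medians are 0.74 and 0.82 in DC and -1.14 and -0.62 in Si8.

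Depth and RNA markers moved with this contrast. The median cell of cluster 7 held 3936 and 3945 UMIs in DC and 5972 and 14954 UMIs in Si8, against 11836 and 10480 UMIs in cluster 0 of DC and 17610 and 19006 UMIs in cluster 0 of Si8. The nuclear-retained transcripts Malat1 and Neat1 summed to 68194 and 47273 CPM in cluster 7 and 15935 and 12934 CPM in cluster 0 of DC, and to 37376 and 11015 CPM in cluster 7 and 12822 and 8429 CPM in cluster 0 of Si8. Goblet markers summed to 240640 and 236370 CPM in cluster 7 of DC and 467000 and 506940 CPM in cluster 7 of Si8, against 142780 and 146690 CPM in cluster 0 of DC and 336320 and 345690 CPM in cluster 0 of Si8. The part of RNA quality and of composition in the nuclear difference was not tested.

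Cells within one range of depth, 2000 to 8000 UMIs, were compared as a description. Depth still differed within it in DC, with medians of 3888 and 3874 UMIs in cluster 7 against 5535 and 6566 UMIs in cluster 0. In the first DC library nuclear members summed to 13516 CPM in 107 cells of cluster 7 against 30697 CPM in 29 cells of cluster 0. Mitochondrial members there summed to 117010 CPM in cluster 7 against 111770 CPM in cluster 0, so that the mitochondrial difference nearly closed while the nuclear one remained. In the second DC library the sums were 17288 against 38810 CPM for nuclear members and 125000 against 93683 CPM for mitochondrial members, over 93 cells of cluster 7 and 99 of cluster 0. In the first Si8 library they were 9557 against 19627 CPM and 15190 against 33639 CPM, over 186 and 86 cells. The second Si8 library had 3 and 5 such cells.

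Counted per cell, cluster 7 held fewer UMIs of both sets than cluster 0 in every library. An average cell of cluster 7 held 63.4 and 103 nuclear-member UMIs in DC, against 463 and 461 in cluster 0, and 504 and 549 mitochondrial-member UMIs against 727 and 633. In Si8 an average cell of cluster 7 held 78.0 and 210 nuclear-member UMIs against 436 and 542 in cluster 0, and 105 and 290 mitochondrial-member UMIs against 460 and 572. The limit of 20% mitochondrial UMIs bears on cluster 7 of DC, whose median mitochondrial share was 11.1% and 11.6%, against 1.16% and 1.59% in cluster 7 of Si8. Of 73 and 175 barcodes removed by it in DC, 23 and 41 lay nearest to cluster 7, and of 24 and 17 removed in Si8, 0 and 0 did.

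Within single cells the relation of the 2 sets varied by tissue and by cluster. Over all goblet-like cells, which mix clusters, the Spearman correlation between the nuclear and the mitochondrial share was taken after each cell was thinned to 2000 UMIs. It was -0.34 and -0.26 in DC and 0.49 and 0.31 in Si8, over 1133 and 2425 DC cells and 1137 and 1145 Si8 cells. Within clusters it was taken on all UMIs of each cell, without thinning, so the 2 sets of values are not the same measure. Within cluster 0 it was -0.25 and -0.29 in DC and 0.16 and 0.21 in Si8, and within cluster 7 it was -0.09 and -0.18 in DC and 0.16 and 0.47 in Si8. Within cluster 2 it lay near 0 in both tissues, at 0.02 and -0.05 in DC and 0.0084 and 0.0046 in Si8. Within cluster 3 it was 0.05 and -0.03 in DC and -0.09 and 0.12 in Si8, and within cluster 6 it was -0.11 and -0.22 in DC and -0.28 and 0.06 in Si8. Both shares come from one total, and both are related to it. Over all goblet-like cells the UMI total before thinning correlated with the thinned mitochondrial share at -0.64 and -0.55 in DC and at 0.22 and -0.14 in Si8. With the thinned nuclear share it correlated at 0.43 and 0.21 in DC and at 0.63 and 0.16 in Si8. In absorptive-like and cycling-like cells, also thinned, the correlation between the sets lay between -0.15 and 0.28.

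Genes that serve the respiratory chain without matching the rule were read from lists chosen with earlier results of these data known. In goblet-like cells 14 of 26 genes for mitochondrial DNA maintenance and expression were higher in DC than in Si8 and 0 were lower, beside 20.6% of all genes higher and 21.5% lower, and the median log2 difference was 0.47 against 0.05 for all genes. Top1mt, the mitochondrial topoisomerase, had 8.52 and 9.90 CPM in DC against 2.05 and 1.54 CPM in Si8 and rose by 1.85 (SE 0.23, adjusted p = 0.00166). The RNA-processing factors Fastkd1 and Fastkd3 rose by 1.40 and 1.38. Of 41 assembly factors 8 were higher and 5 lower, which is near the share of all genes higher and below that lower. Nubpl, which delivers iron-sulfur clusters to complex I, rose by 1.45, and Cox19, a copper-route factor of complex IV, fell by 0.90. Over all kept cells 2 of the 26 genes for mitochondrial DNA maintenance and expression were higher in DC and 0 were lower, beside 12.9% of all genes higher and 11.9% lower. In absorptive-like cells 3 were higher and 1 lower, beside 16.7% of all genes higher and 16.7% lower. In cycling-like cells 1 was higher and 3 lower, beside 14.4% of all genes higher and 11.7% lower. Between goblet-like clusters, 9 of the 26 were lower in cluster 0 than in cluster 2 and 0 were higher, beside 17.6% of all genes lower and 18.7% higher. Cluster 0 held 22.3% and 21.4% of the goblet-like class in DC, against 29.7% and 51.9% in Si8. The part of this cluster mix in the 14 calls was not tested.

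Of 13 regulators of mitochondrial genes 5 were higher in DC goblet-like cells and 0 lower, beside 20.6% of all genes higher. The median log2 difference of this list was 0.08, against 0.05 for all genes. Ppargc1a, the coactivator PGC-1alpha, had 80.7 and 56.2 CPM in DC against 4.51 and 3.37 CPM in Si8 and rose by 3.60 (SE 0.23, adjusted p = 0.00017). Esrrg, a nuclear receptor of the estrogen-related family, had 1.96 and 1.93 CPM in DC against 0.0586 and 0.0468 CPM in Si8. Near 0 in Si8, it passed the count filter through DC alone and could only be called higher. Myc rose by 1.79. Of 12 chain genes outside the rule, Etfa was higher by 0.44, and Cycs, cytochrome c, fell by 0.62 with TMM scaling, although its CPM of 388 and 400 in DC overlaps the 462 and 378 CPM in Si8.

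The same lists were read in cluster 7 against cluster 0, where 18.1% of all genes were higher and 19.3% lower. Of 12 chain genes outside the rule 9 were lower, with Sdhd of complex II by 1.40 and Atpif1, the inhibitor of the ATP synthase, by 1.31. Of 36 assembly factors tested 19 were lower. Of 15 genes for mitochondrial DNA maintenance and expression 5 were lower and 1 higher. Tfam, which packages mitochondrial DNA, had 5.97 and 4.12 CPM in cluster 7 against 26.0 and 25.1 CPM in cluster 0 of DC, and 2.95 and 8.87 CPM in cluster 7 against 13.8 and 16.2 CPM in cluster 0 of Si8. It fell by 1.39 (SE 0.34, adjusted p = 0.00514) and was below cluster 0 in all 4 libraries. Polg, the mitochondrial DNA polymerase, rose by 0.79 with TMM scaling (SE 0.28, adjusted p = 0.0354), although its CPM in the first DC library was 15.9 in cluster 7 and 17.7 in cluster 0. Of 11 regulators 1 was lower, Ppargc1b, by 1.19. In cluster 0 against cluster 2, 15 of 41 assembly factors and 2 of 12 chain genes outside the rule were lower. There 0 of each were higher, beside 17.6% of all genes lower.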

How the data were processed

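The authors' deposited tables hold UMI counts per gene and barcode from 10x 3′ libraries, made with Cell Ranger 2.1.1 on mm10 per the submitters' processing notes. Barcodes under 500 genes or over 20% mitochondrial UMIs were dropped, as were 30 and 204 DC and 19 and 41 Si8 barcodes with the highest doublet scores (Scrublet, 0.8% expected per 1000 cells). Cells were clustered with scanpy 1.11.5 and leidenalg 0.10.2 on 2000 variable genes and 30 principal components without the members or lists. UMI counts were summed per class or cluster and library and tested with edgeR 4.0.16 (R 4.3.3; quasi-likelihood test, TMM, filterByExpr minimum count 10, Benjamini-Hochberg over all genes tested); DESeq2 1.42.0 and the settings of the closing section were alternatives. Clusters and levels come from the same cells. Class and cluster contrasts and interactions had library as a block.

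Members and lists were chosen with earlier results of these data known. Comparisons by tissue within absorptive-like and cycling-like cells and that of cluster 7 were added after levels were seen. Named were all mitochondrial members, the alternative forms of complex IV and Ndufa4, and from each comparison nuclear members among the 10 largest changes past 0.05 whose direction held in all libraries (CPM that did not overlap, between tissues), with up to 3 genes per list and direction. Ndufb2, Uqcr10, Ndufb4, Uqcrh, Atp5j, Atp5a1 and, in the interaction, Ndufa7 were named after their values were seen. Near-identical copies and processed pseudogenes of subunit genes may share reads. Totals cover counting error only. On simulated data for the goblet-like tissue comparison the test recovered 72% of genes changed by 1 and 93% of genes changed by 2 on the log2 scale. The simulation changed 100 genes by each amount among 11922 and gave all libraries the same mean profile otherwise. In the data 42.1% of genes passed, so these rates need not hold for them. Goblet-like cells summed to 13266330 and 25861635 UMIs in DC and 17060812 and 21368569 in Si8. One result is not reported here.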

Additional observations from a re-analysis of the deposited data

Results flagged for a closer look

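The results here are tests of whether a contrast differed between DC and Si8 (edgeR interaction terms), and no cause was tested. The absorptive-like minus goblet-like difference was larger in DC for 3 nuclear members and smaller for 27 nuclear and 8 mitochondrial members. The cycling-like minus goblet-like difference was larger in DC for 5 nuclear members and smaller for 24 nuclear and 11 mitochondrial members. Both rest on the same goblet-like sums. The cluster 0 minus cluster 2 difference was smaller in DC for 2 nuclear members and larger for 2 mitochondrial members. The cluster 7 minus cluster 0 difference was larger in DC for 1 nuclear and 12 mitochondrial members.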

How the results depend on the processing

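Counts are of members called in either direction, and the cause of each shift was not tested. With library totals in place of TMM they were 78 against 15 for the tissue comparison in goblet-like cells, 16 against 4 over all kept cells, 8 against 5 in cycling-like cells, 57 against 20 for absorptive-like and 43 against 15 for cycling-like minus goblet-like, 87 against 17 for Paneth-like minus goblet-like, 56 against 27 for cluster 0 minus cluster 2, and 70 against 38, 81 against 40 and 30 against 4 for the interactions with tissue of absorptive-like, cycling-like and cluster 0. In the last the direction turned, with 20 nuclear members higher in place of 2 lower. In cluster 7 minus cluster 0, library totals gave 71 lower nuclear members in place of 61 and 0 called mitochondrial members in place of 2. A mitochondrial limit of 10% gave 56 and 0. Totals without the 10 most abundant genes gave 56 in goblet-like cells, 8 over all cells, 8 in cycling-like cells, 35 for absorptive-like and 75 for Paneth-like minus goblet-like. Cells thinned to 2000 UMIs gave 6, 2, 2, 2 and 12 for goblet-like, all, absorptive-like and cycling-like cells by tissue and for absorptive-like minus goblet-like. DESeq2 gave 7 over all cells, 2 for Paneth-like minus goblet-like and 2 for the cluster 0 interaction. Without a filter Paneth-like minus goblet-like had 26 calls, and without cluster 7, chosen after seeing the data, 28, while the absorptive-like interaction had 25. Cluster 2 alone gave 6 by tissue. Another setting was a coarser clustering, at a Leiden resolution of 0.5. There a cluster of 330 and 712 DC and 334 and 276 Si8 cells was named Paneth-like. The goblet-like class of that setting is thus a different set of cells.

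Leaving out 1 library gave 7 to 11 calls in goblet-like cells (7 without Si8 replicate 1, 9 without Si8 replicate 2), 2 to 6 over all cells (2 without either DC library), 2 to 13 in absorptive-like cells (3 and 2 without DC replicates 1 and 2), 3 to 6 in cycling-like cells (3 without DC replicate 1), 3 to 14 for absorptive-like minus goblet-like (8 without DC replicate 2, 3 and 6 without Si8 replicates 1 and 2), 7 to 10 for cycling-like minus goblet-like (7 and 9 without Si8 replicates 1 and 2), 16 to 24 for cluster 0 minus cluster 2 (16 without DC replicate 1) and 53 to 63 for cluster 7 minus cluster 0. Where an arm keeps 1 library, it is assumed to vary like the others. This could not be fitted for Paneth-like cells and was not run for interactions. Other mitochondrial limits, thinning and totals without the 10 most abundant genes were not run for interactions either. Without DC replicate 1 the goblet-like tissue estimates of mt-Atp8, mt-Nd4l and mt-Nd5 turned to -0.26, -0.13 and -0.16, against up to 0.62, 0.53 and 0.32 when another library was left out, and mt-Nd6 was -0.071 in cluster 6 alone. Of 1434 values of single members under other settings 1193 kept direction and call, 185 lost the call, 52 gained one and 4 turned sign.

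The replicate numbers are shared by DC and Si8, and the labels do not say what a number marks. Deviations of same-numbered libraries correlated at 0.213 and of other-numbered ones at -0.213, but with 2 pairs these are opposites by construction, so the check does not show whether the numbers pair the libraries. With the replicate block the tissue counts were 30 in goblet-like cells, 7 over all cells, 16 in absorptive-like and 13 in cycling-like cells. Power in the cluster 7 interaction may be low. On simulated data for it 7% of genes changed by 1 and 52% of genes changed by 2 on the log2 scale were recovered. All libraries shared the same mean profile in that simulation, which the data do not.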

Other observations

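Other mitochondrial and energy genes were read from lists chosen with earlier results of these data known. In cluster 7 against cluster 0, 55 of 76 mitochondrial ribosomal proteins, 16 of 19 import and chaperone genes and 14 of 17 genes of the tricarboxylic acid cycle and pyruvate dehydrogenase were lower (edgeR, adjusted p under 0.05), and 0 of each were higher, beside 19.3% of all genes lower. Mrps28 fell by 2.40, Timm10, a carrier of membrane proteins into mitochondria, by 1.92 and Idh3a, of isocitrate dehydrogenase, by 2.00. Of 16 glycolysis genes 7 were higher and 1 lower, beside 18.1% of all genes higher. Pkm, pyruvate kinase, had 402 and 383 CPM in cluster 7 against 128 and 137 CPM in cluster 0 of DC, and 159 and 120 CPM in cluster 7 against 133 and 111 CPM in cluster 0 of Si8, and rose by 1.25. Of 12 surface genes 10 were higher, but Mxd1, Sprr1a and Krt20 of this list are also leading genes by which cluster 7 was described. Both nuclear-retained RNAs were higher, Malat1 by 1.87 and Neat1 by 1.70. These shifts were not particular to cluster 7. In cluster 0 against cluster 2, 50 of 76 mitochondrial ribosomal proteins, 15 of 22 import genes and 8 of 17 tricarboxylic acid cycle genes were lower, beside 17.6% of all genes. There 0, 0 and 1 were higher. Of 16 glycolysis genes 7 were higher and 4 lower there, beside 18.7% of all genes higher. Of 11 surface genes 10 were higher, but the level of this same list had put cluster 0 on top. That count was therefore set by the choice and is no separate result.

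By tissue in goblet-like cells 20.6% of all genes were higher in DC and 21.5% lower. Of 17 genes of the tricarboxylic acid cycle list 6 were higher in DC and 0 lower. Dlat, of pyruvate dehydrogenase, had 41.9 and 37.8 CPM in DC against 9.91 and 11.3 CPM in Si8 and rose by 1.38. Of 77 mitochondrial ribosomal proteins 10 were higher and 7 lower, both below the shares of all genes. Mrps6 had 29.3 and 35.7 CPM in DC against 5.92 and 4.91 CPM in Si8 and rose by 2.07. Of 22 import genes 5 were higher and 3 lower. Of 17 glycolysis genes 4 were higher and 4 lower, with Pfkp, a phosphofructokinase, lower by 1.90. Of 18 dissociation stress genes 3 were higher, Nr4a1 by 2.81, Jun by 0.80 and Atf3 by 0.70. By tissue in absorptive-like cells 10 of the 18 were higher in DC and 0 lower, beside 16.7% of all genes higher. By tissue in cycling-like cells 10 were higher and 0 lower, beside 14.4% of all genes higher. The part of the dissociation in the differences between tissues, including those of the members, was not tested.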
